A study of Caenorhabditis elegans with 18 samples.

Results

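The genes described here are those that make the parts of the protein synthesis machinery named eif, eef, ife or iff, and the aminoacyl-tRNA synthetases. They were chosen by WormBase symbol: every gene whose symbol starts with eif-, eef-, ife- or iff-, or is a single letter followed by ars-1, ars-2 or ars-3. The rule found 70 of the 20134 genes with a count line, of which 38 were factors and 32 synthetases. By role there were 10 genes with eif-2 symbols (initiation factors 2 and 2B, with eif-2A and eif-2D), 11 of initiation factor 3, 5 of the cap-binding protein eIF4E, 2 of eIF5A, 4 other initiation factors and 6 elongation factors. A single gene, ife-4, had too few reads to test, with 3 in WAGO-1 IP replicate C, 2 in replicate A of the WAGO-1 dpf-3 deletion IP, 1 in WAGO-3 input replicate C and none in the other libraries. The other 69 were tested.

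Initiation factors bring the small ribosomal subunit and the initiator tRNA to a messenger RNA, elongation factors deliver aminoacyl-tRNAs and move the ribosome along, and synthetases load each amino acid onto its tRNA. Several of these proteins come in C. elegans as a germline and a somatic version, among them eIF5A, with iff-1 in the germline and iff-2 in the soma. The Argonautes WAGO-1 and WAGO-3 bind 22G RNAs, which RNA-dependent RNA polymerases make as antisense copies of target transcripts, so a read counted under a gene here is a small RNA matching it and not its messenger RNA.

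The study compared 6 groups of 3 libraries (replicates A, B and C) from whole worms collected at the L4 larval stage and grown at 15 °C on NA22 bacteria. The genotypes were 1xFLAG::WAGO-1, 1xFLAG::WAGO-1 dpf-3{delta} and 1xFLAG::WAGO-3, so every animal carried a FLAG-tagged Argonaute. dpf-3 encodes a dipeptidyl peptidase, which removes pairs of amino acids from protein ends. Each genotype gave small RNAs bound to the tagged protein (immunoprecipitate, IP) and RNA of the extract (input), and both were treated with a 5′ polyphosphatase so that RNAs with a 5′ triphosphate could be cloned. Inputs, but not IPs, went through a small RNA enrichment step, and no IP from an untagged strain is among the groups, so differences of preparation and of binding cannot be told apart in IP against input. The animals were lysed whole, so fewer cells with a small RNA and less of it per cell cannot be told apart.

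Each IP held 2206087 to 5649896 reads in genes and unnamed genomic intervals, and each input 88761 to 517278. The 70 genes had a median of 82.5, 296.5 and 82 reads over the 3 libraries of the WAGO-1, deletion and WAGO-3 IPs, and of 29.5, 20 and 21.5 in the matching inputs, so the inputs limit the precision. Levels are reads per 1000000 (CPM) on the TMM scale of edgeR, as mean ± SD with n = 3, and calls are edgeR quasi-likelihood tests at a Benjamini-Hochberg adjusted p under 0.05 over 11648 features. The TMM scale sets where 0 lies in each contrast, and with total counts as the scale the median of all features lay 1.44, 1.07 and 1.62 lower (log2) in the 3 IPs against inputs. Directions below are therefore relative to the TMM scale, and splits of gene groups are given under total counts too. Reads of the deleted gene itself were too few to check the labels: dpf-3 had 11, 16 and 12 reads in the WAGO-1 inputs and 3, 2 and 1 in the deletion inputs, a log2 fold of -1.73 ± 0.59 (SE, edgeR adjusted p = 0.0199). The IPs held 4, 15 and 11 dpf-3 reads in the intact and 14, 10 and 27 in the deletion strain, with -0.54 ± 0.36 (adjusted p = 0.186).

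Relative to all features, a smaller share of these genes was called higher and a larger share lower in each IP, on the TMM scale. Against its own input, the WAGO-1 IP had 10 of the 69 genes higher and 32 lower, while of all features 43.2% passed upward and 24.9% downward (37.2% and 28.4% of all genes). The deletion IP had 13 higher and 26 lower, beside 32.9% and 21.2% of all features (30.3% and 24.1% of all genes). The WAGO-3 IP had 17 higher and 21 lower, beside 34.8% and 26.8% of all features (28.0% and 30.4% of all genes). As shares of the 69 genes, these were 14.5%, 18.8% and 24.6% higher and 46.4%, 37.7% and 30.4% lower. The median log2 fold of the genes was -0.71, -0.54 and -0.26 where that of all features was 0.52, 0.40 and 0.23. Over all genes tested it was 0.161, 0.105 and -0.129, and 20, 22 and 32 of the 69 genes lay above it. On the TMM scale the WAGO-3 shares and median thus lay near those of all genes. The gap of the medians, genes minus all features, was -1.2, -0.94 and -0.49, and -1.2, -0.94 and -0.51 when total counts set the scale.

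Under total counts the splits were 1 higher and 57 lower, 1 and 51, and 4 and 51, beside 12.3%, 12.8% and 10.2% of all features passing upward and 48.8%, 37% and 52.1% downward. The single gene higher on both scales in all 3 IPs was iff-2, and aars-1, cars-1 and iars-1 joined it in the WAGO-3 IP. Leaving out replicate B of the WAGO-1 input left 21 genes lower with WAGO-1, and leaving out replicate B of the WAGO-3 input left 12 lower with WAGO-3. In the deletion strain 14 were lower without replicate C of its input and 8 were higher without replicate A of its IP. On the TMM scale 9 genes were higher in all 3 IPs (iff-2, eef-2, eef-1A.2, aars-1, cars-1, iars-1, rars-2, tars-1 and wars-1) and 13 were lower in all 3, among them ife-1, eef-1G, eif-2A, eif-6, aars-2, fars-1 and gars-1. The shares of all features called in all 3 IPs were not counted, so these 2 numbers only list genes. The WAGO-1 calls of aars-1, cars-1, rars-2 and wars-1 were lost with other TMM references.

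With dpf-3 deleted, the WAGO-1 IPs had 43 of the 69 genes higher and 4 lower, beside 30.6% and 31.8% of all features (35.5% and 22.6% of all genes). In the inputs of the same strains 16 were higher and 1 lower, beside 8.65% and 14.9% of all features (10.1% and 9.20% of all genes). Under total counts the splits became 67 higher and 1 lower in the IPs and 47 and 1 in the inputs, beside 69.2% and 29.1% of all features passing upward and 16.9% and 10.2% downward. The genes' median log2 fold was 0.69 in the IPs and 0.60 in the inputs, and 57 and 56 of the 69 genes lay above the median of all features, which stood at 0.07 and 0.02. The intervals' share of feature counts was 31.2% in the intact and 12.04% in the deletion IPs, and 26.5% and 8.32% in the inputs. Their part in the genes' shift was not tested. Relative to the median of genes alone, 53 of the 69 lay above it in the IPs and 52 in the inputs.

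The count for the inputs was the least stable of these. It was 7 without replicate C of the WAGO-1 input and 6 without replicate A of the deletion input, and with WAGO-1 IP replicate B as the TMM reference no gene was higher and 2 were lower, beside 1.15% and 23.6% of all features. Of the 16 genes higher in the deletion inputs 14 were higher in the deletion IPs as well, which is 87.5% of the inputs' list and 32.6% of the IPs' list of 43. Of all 69 genes 62.3% were higher in the deletion IPs. The same overlap was not counted over all features, so it is not read as a trait of these genes. These comparisons have no library in common.

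The genes of the eIF5A pair moved in opposite directions with the dpf-3 deletion. eIF5A helps the ribosome past difficult peptide bonds. The gene iff-2 (WBGene00002065, chromosome II, 8559581 to 8560964 in the RefSeq annotation of ce11) had 34025 reads over all libraries, more than any other of the 70. In the WAGO-1 IPs it stood at 1525, 1444 and 1370 CPM and in their inputs at 252.2, 331.4 and 347.2. In the deletion strain its levels were 280.9, 247.2 and 268.7 CPM in the IPs and 50.66, 38.52 and 59.86 in the inputs, and in the WAGO-3 strain 4564, 4570 and 4753 in the IPs and 584.5, 735 and 725.4 in the inputs. Every IP lay above its inputs and every deletion library below the matching intact library, with no overlap between groups.

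On the log2 scale iff-2 was 2.19 ± 0.09 (SE) higher in the WAGO-1 IP than in its input, 2.39 ± 0.19 in the deletion strain and 2.76 ± 0.09 with WAGO-3 (edgeR adjusted p = 3.25e-47, 2.14e-23 and 1.92e-61). On the TMM scale small RNAs of iff-2 were 5.43-fold lower in the deletion IPs and 6.27-fold lower in the deletion inputs, with log2 folds of -2.44 ± 0.08 and -2.65 ± 0.20 (edgeR adjusted p = 2.09e-62 and 1.45e-24). The fall was smaller as a mean share of feature counts, from 0.0699% to 0.0283% in the IPs and from 0.0413% to 0.0111% in the inputs. Since IPs and inputs both fell, the enrichment over input did not pass a test of change, at 0.21 ± 0.25 (edgeR adjusted p = 0.818). Per kilobase of annotated span iff-2 led the 69 genes in 5 of the 6 groups, at 1050 CPM in the WAGO-1 IP and 3340 in the WAGO-3 IP. In the deletion input the lead went to eef-1B.1, at 131 CPM per kilobase. The span of iff-2 contains the small nucleolar RNA gene F54C9.12, which is not analysed here.

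The germline counterpart iff-1 (WBGene00002064, chromosome III, 9745862 to 9747193) stood at 17.6, 12.75 and 13.67 CPM in the WAGO-1 IPs and at 91.93, 75.03 and 86.77 in the deletion IPs. Its inputs held 17.04, 41.79 and 31.95 CPM with dpf-3 intact and 70.15, 77.04 and 82.31 in the deletion. All deletion libraries lay above all intact WAGO-1 libraries of the same kind. The log2 fold was 2.58 ± 0.15 in the IPs and 1.197 ± 0.29 in the inputs (edgeR adjusted p = 2.01e-35 and 0.000682). With WAGO-1 IP replicate B as TMM reference the inputs' call was lost (adjusted p = 0.202). IP against input gave -1.23 ± 0.28 for WAGO-1 (adjusted p = 5.72e-05, and 0.0525 without WAGO-1 input replicate B) and 0.15 ± 0.21 in the deletion, which passed no test and was -0.93 under total counts. In the WAGO-3 strain iff-1 stood at 43.37, 51.64 and 43.03 CPM in the IPs and 43.67, 50.34 and 33.13 in the inputs, with overlapping ranges and no call (0.11 ± 0.25, and -1.53 under total counts).

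The ratio of iff-2 to iff-1 reads within a library does not depend on any scaling. It was 86.7 to 113 in the WAGO-1 IPs and 3.06 to 3.3 in the deletion IPs, and 7.93 to 14.8 in the WAGO-1 inputs and 0.5 to 0.727 in the deletion inputs. The differences of -4.98 and -4.08 in mean log2 ratio each had an exact two-sided permutation p of 0.1, the smallest that 3 against 3 libraries can give. In the WAGO-3 IPs the ratio was 88.5 to 110, with a difference from the WAGO-1 IPs of 0.02 in mean log2 ratio (exact permutation p = 0.9).

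**Figure D1:**
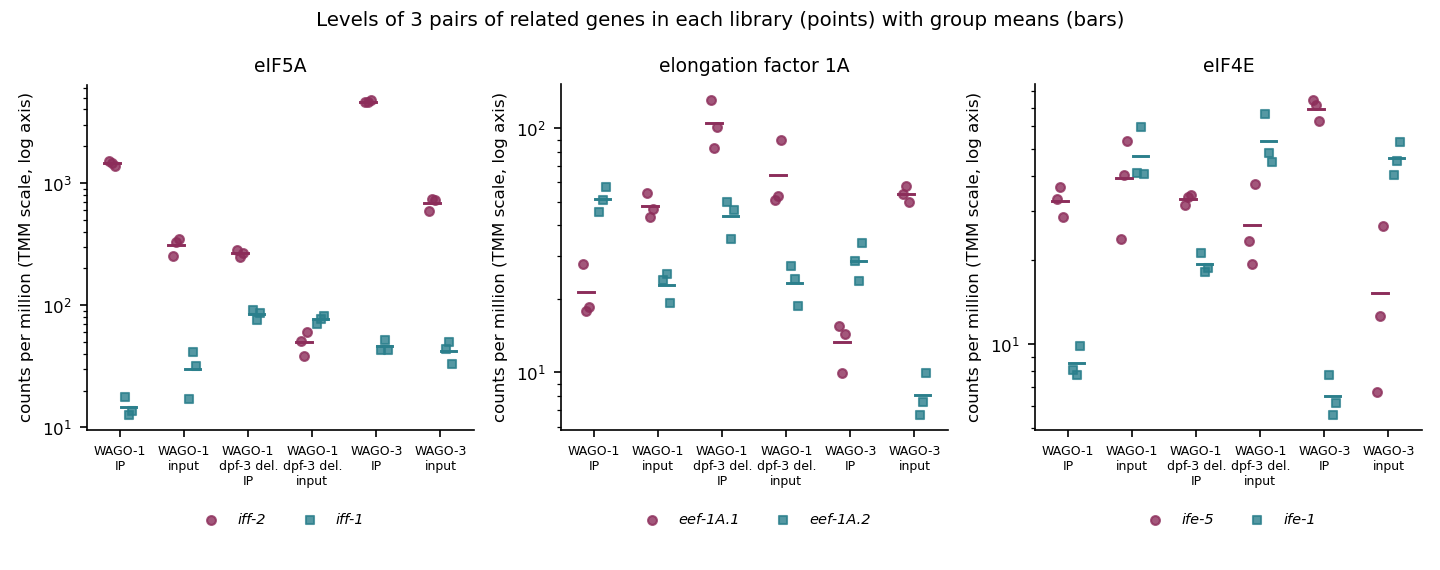
Levels of 3 pairs of related genes in each of the 18 libraries, in CPM on the TMM scale (log axis), with points for libraries and bars for group means of 3. iff-2 lies far above iff-1 in every group but the deletion input, where its 3 libraries (38.52 to 59.86) lie below those of iff-1 (70.15 to 82.31).

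Among the elongation factors, the near-identical eEF1A copies eef-1A.1 and eef-1A.2 parted. eEF1A carries aminoacyl-tRNAs to the ribosome. eef-1A.1 (chromosome III, 6970026 to 6971712) stood at 27.87, 17.77 and 18.61 CPM in the WAGO-1 IPs and at 130.4, 83.2 and 101.3 in the deletion IPs. eef-1A.2 (chromosome X, 7823654 to 7825769) stood at 45.47, 51 and 57.35 CPM in the WAGO-1 IPs and at 49.78, 35.04 and 46.2 in the deletion IPs. The groups were apart for eef-1A.1 and overlapped for eef-1A.2.

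eef-1A.1 was 5.18-fold higher in the deletion IPs, a log2 fold of 2.37 ± 0.14 (SE, edgeR adjusted p = 1e-33), while eef-1A.2 had -0.24 ± 0.12 (adjusted p = 0.069). Under total counts both copies were called higher, eef-1A.1 at 3.502 and eef-1A.2 at 0.89 (log2; adjusted p = 4.34e-11 for the latter). Between the inputs neither copy was called, with 0.48 ± 0.30 and 0.01 ± 0.44 (edgeR adjusted p = 0.271 and 0.991), although under total counts eef-1A.1 was called at 1.25. The ratio of eef-1A.1 to eef-1A.2 reads was 0.325 to 0.613 in the WAGO-1 IPs, 2.19 to 2.62 in the deletion IPs and 0.421 to 0.545 in the WAGO-3 IPs, against 1.71 to 2.44, 1.86 to 4.8 and 5 to 8 in the inputs. The deletion IPs differed from the WAGO-1 IPs by 2.54 in mean log2 ratio (exact permutation p = 0.1) and the inputs by 0.35 (exact p = 0.7). How reads shared by the copies were counted is not given in the sources used here, and eef-1A.1 overlaps the protein-coding gene F31E3.12, so the split between them is uncertain. Counts of eef-1A.2 in single inputs were as low as 2 in the WAGO-3 strain.

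Of the other elongation genes, eef-2, which encodes the translocase, was higher in all 3 IPs on the TMM scale, by 0.91 ± 0.15, 1.18 ± 0.14 and 1.35 ± 0.15 (log2, SE; edgeR adjusted p = 4.38e-08, 2.36e-12 and 7.67e-15). Under total counts these became -0.54, 0.11 and -0.28. Its level was 160.6, 166.5 and 150.8 CPM in the WAGO-1 IPs and 378.4, 299.5 and 341.6 in the deletion IPs. The groups did not overlap, and the difference of 1.10 ± 0.09 was called (edgeR adjusted p = 1.03e-23), as was that between the inputs, 0.82 ± 0.20 (adjusted p = 0.000791). The inputs' call was lost without replicate C of the deletion input (adjusted p = 0.188) or of the WAGO-1 input (0.0558).

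The exchange-factor subunits, which recharge eEF1A with GTP, did not move alike. eef-1G was lower in all 3 IPs, by -2.43 ± 0.30, -2.06 ± 0.29 and -1.196 ± 0.25 (log2, SE; edgeR adjusted p = 2.48e-12, 4.92e-10 and 2.02e-05). eef-1B.1 and eef-1B.2 had 0.11 ± 0.16 and 0.06 ± 0.15 in the WAGO-1 IP and passed no test there. In the deletion IP they had 0.36 ± 0.16 and 0.20 ± 0.16 (edgeR adjusted p = 0.0445 and 0.284), and the first was lost without any 1 of 5 libraries (0.0851 to 0.223). Under total counts both were called lower there, at -0.71 and -0.88. They were higher in the WAGO-3 IP by 0.74 ± 0.17 and 0.59 ± 0.19 (edgeR adjusted p = 8.36e-05 and 0.00496), a direction that reversed to -0.89 and -1.04 under total counts. With the dpf-3 deletion all 3 subunit genes were higher in the IPs, with log2 folds of 1.01 ± 0.09 for eef-1B.1, 0.70 ± 0.09 for eef-1B.2 and 0.98 ± 0.23 for eef-1G (edgeR adjusted p = 1.22e-18, 6.41e-11 and 7.92e-05). In the inputs eef-1B.1 and eef-1B.2 were called higher at 0.75 ± 0.21 and 0.55 ± 0.20, of which the second turned to -0.11 with WAGO-1 IP replicate B as the TMM reference, and eef-1G had 0.61 ± 0.30 (adjusted p = 0.148). The inputs' call of eef-1B.1 was lost without deletion input replicate B (adjusted p = 0.142), and that of eef-1B.2 without replicate A (0.48) or B (0.155) of that input or replicate B (0.0718) or C (0.357) of the WAGO-1 input.

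The cap-binding eIF4E genes recruit messenger RNAs through their 5′ cap, and ife-1, ife-3 and ife-5 are known from the germline. ife-1 was the lowest of them in the IPs relative to input, by -2.50 ± 0.27 with WAGO-1, -1.46 ± 0.29 in the deletion and -2.81 ± 0.35 with WAGO-3 (log2, SE; edgeR adjusted p = 7.07e-15, 6.39e-06 and 5.93e-12). Its IP levels were 8.066, 7.727 and 9.875 CPM for WAGO-1, 21.16, 18.06 and 18.75 for the deletion and 7.768, 5.6 and 6.148 for WAGO-3, and its lowest input stood at 40.31. The deletion and intact IPs of ife-1 did not overlap, with a log2 fold of 1.16 ± 0.21 (edgeR adjusted p = 3.07e-07), while the inputs gave 0.11 ± 0.30 (adjusted p = 0.851). ife-1 overlaps the protein-coding gene dro-1.

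ife-5 behaved differently between the Argonautes. Its level was 33, 36.32 and 28.49 CPM in the WAGO-1 IPs and 74.45, 71.55 and 62.5 in the WAGO-3 IPs, and 23.85, 40.3 and 53.25 CPM in the WAGO-1 inputs and 6.719, 12.59 and 26.5 in the WAGO-3 inputs. On the TMM scale the WAGO-3 IPs lay above all WAGO-3 inputs, while WAGO-1 IPs and inputs overlapped. The log2 fold of IP against input for WAGO-3 was 2.22 ± 0.32 on this scale, but 0.59 and not called under total counts (edgeR adjusted p = 0.162). For WAGO-1 it was -0.34 ± 0.23 on the TMM scale, and the difference of 2.56 ± 0.41 was itself called (edgeR adjusted p = 1.26e-07). Part of that difference lay in the inputs, which were 2.72-fold lower in the WAGO-3 strain (edgeR adjusted p = 0.00383) with 2, 5 and 8 reads, and without WAGO-3 input replicate A the adjusted p was 0.0631.

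The remaining eIF4E genes were thinly covered. ife-3 was lower in the WAGO-1 IP by -0.93 ± 0.36 (log2, SE; edgeR adjusted p = 0.0185, and 0.0583 with no filter on low counts) and had -0.53 ± 0.43 and -0.87 ± 0.44 in the other IPs. Its call was lost without replicate B (0.0906) or C (0.0582) of the WAGO-1 IP, or replicate C (0.476) of the WAGO-1 input. The somatic ife-2 had 12, 9 and 16 reads in the WAGO-1 IPs and 13, 12 and 12 in the deletion IPs, at most 2 in any WAGO-1 or deletion input and at most 1 in any WAGO-3 library. Its level of 8.8, 3.477 and 6.077 CPM against 2.201, 2.58 and 2.046 in the deletion IPs was called lower, at -1.30 ± 0.37 (edgeR adjusted p = 0.00135), and under total counts at -0.19 it was not.

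The span of ife-5 (chromosome II, 12280660 to 12284139) also holds 8 unnamed intervals with 12626 reads in all, against 1140 for the gene, and these went another way. The interval with most reads, from 12282772 to 12283057 on the plus strand, stood at 763 ± 101 CPM (SD, n = 3) in the WAGO-1 IPs, 196 ± 13.6 in the WAGO-1 inputs, 28 ± 1.62 in the deletion IPs and 6.44 ± 8.14 in the deletion inputs. Its log2 fold with the deletion was -4.76 in the IPs and -4.81 in the inputs (edgeR adjusted p = 1.22e-82 and 6.28e-24). The gene itself had 0.02 ± 0.14 and -0.59 ± 0.37 in the same comparisons (adjusted p = 0.914 and 0.28). The other 3 intervals with enough reads to test were lower by -3.24 to -5.4 in the deletion IPs. These intervals were chosen for description after their values were seen.

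Of the 11 eIF3 genes, whose products form the scaffold that binds the small ribosomal subunit, 6 were lower and 1 higher in the WAGO-1 IP, 5 and 1 in the deletion IP, and 2 and none in the WAGO-3 IP. Of all features 24.9%, 21.2% and 26.8% were lower in these comparisons. Under total counts no eIF3 gene was higher and 9, 10 and 10 were lower, beside 48.8%, 37% and 52.1% of all features. eif-3.G was lower in the WAGO-1 and deletion IPs by -1.57 ± 0.35 and -1.43 ± 0.36 (log2, SE; edgeR adjusted p = 3.47e-05 and 0.00036) and had no call with WAGO-3. Without replicate C of the deletion input the second was not called (adjusted p = 0.0674). The gene called higher in the WAGO-1 IP was eif-3.J, at 0.85 ± 0.38 (edgeR adjusted p = 0.0428), which became -0.59 under total counts.

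With the dpf-3 deletion 5 eIF3 genes were higher and 2 lower in the IPs, beside 30.6% and 31.8% of all features, and under total counts all 11 were higher, beside 69.2%. eif-3.B rose from 42.53, 37.86 and 36.84 CPM to 98.7, 99.75 and 103.8, with a log2 fold of 1.39 ± 0.11 (edgeR adjusted p = 3.96e-23). eif-3.C rose from 20.53, 21.25 and 26.21 CPM to 56.89, 59.55 and 56.77, with 1.32 ± 0.14 (adjusted p = 2.18e-16). For both genes the groups did not overlap, and both were called in the inputs as well, at 0.84 ± 0.30 and 0.88 ± 0.26 (adjusted p = 0.0305 and 0.00668). The inputs' call of eif-3.B was lost without any 1 of the 6 libraries (adjusted p from 0.066 to 0.203), and that of eif-3.C without deletion input replicate A (0.171). eif-3.I and eif-3.J went the other way on the TMM scale, at -0.48 ± 0.18 and -0.56 ± 0.19 (edgeR adjusted p = 0.016 and 0.00621), but stood at 0.65 and 0.57 under total counts, so the direction depends on the scale.

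eIF2 supplies the initiator tRNA and eIF2B recharges eIF2 with GTP. Their genes were grouped by the eif-2 symbol, which also takes in eif-2A and eif-2D, for 10 genes in all. None of the 10 was higher in the WAGO-1 or deletion IP, and 3 and 4 were lower, beside 24.9% and 21.2% of all features. Under total counts 9 and 10 were lower, beside 48.8% and 37% of all features. eif-2A, named with them by symbol, was lower in all 3 IPs, at -1.51 ± 0.26, -1.31 ± 0.28 and -1.32 ± 0.28 (log2, SE; edgeR adjusted p = 2.26e-07, 2.63e-05 and 1.5e-05), and it overlaps the protein-coding gene frpr-21. In the WAGO-3 IP the eIF2B genes split, with eif-2Bgamma at 1.89 ± 0.51 and eif-2Bepsilon at 1.27 ± 0.27 higher and eif-2Bdelta at -1.51 ± 0.40 lower (edgeR adjusted p = 0.00082, 2.02e-05 and 0.000569). Under total counts none of the 10 was higher and 8 were lower there, and eif-2Bepsilon had -0.36 and eif-2Bgamma 0.27, neither called. Between the WAGO-1 IPs 8 of the 10 were higher in the deletion and 10 under total counts, beside 30.6% and 69.2% of all features, with eif-2gamma at 0.94 ± 0.20 and eif-2A at 0.62 ± 0.18 (adjusted p = 1.1e-05 and 0.00123), the latter lost without replicate B of the WAGO-1 IP (0.0921).

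Of the remaining initiation factors, eif-1, which guards the choice of start codon, stood at 2.2, 2.318 and 5.317 CPM in the WAGO-1 IPs, 16.93, 17.41 and 13.47 in the deletion IPs and 7.768, 11.82 and 13.32 in the WAGO-3 IPs. Its WAGO-1 inputs held 27.26, 28.36 and 14.91 CPM, and the log2 fold of IP against input was -2.74 ± 0.41 (SE, edgeR adjusted p = 3.13e-09). eif-1 overlaps the protein-coding genes T27F7.12 and pigb-1. eif-1.A, its partner in scanning, was higher in the deletion IPs by 0.73 ± 0.14 (adjusted p = 3.1e-06).

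**Figure D2:**
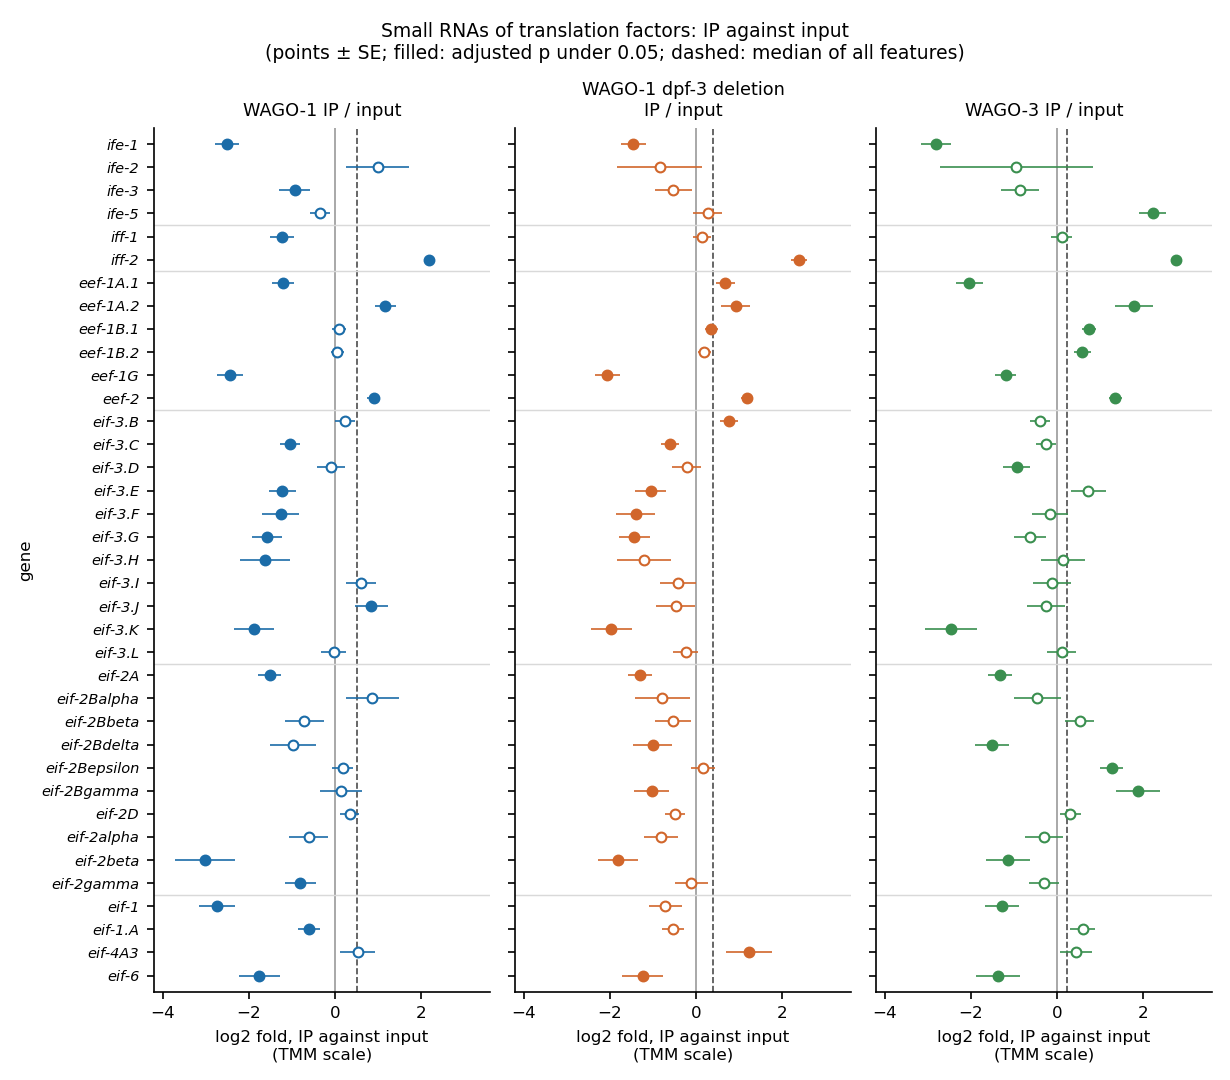
Log2 fold of IP against input (TMM scale, horizontal axis) for the 37 tested factor genes in the WAGO-1, WAGO-1 dpf-3 deletion and WAGO-3 strains, with bars of 1 SE, filled points for edgeR adjusted p under 0.05 and a dashed line at the median of all features. iff-2 lies farthest right in each panel, and under total counts it is the only factor still called higher than input.

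The 32 synthetase genes split into 6 higher and 15 lower with WAGO-1, 6 and 14 with WAGO-1 in the deletion, and 9 and 11 with WAGO-3. The same 6 genes, aars-1, cars-1, iars-1, rars-2, tars-1 and wars-1, were the higher ones in both WAGO-1 strains and were among the 9 with WAGO-3. They load alanine, cysteine, isoleucine, arginine, threonine and tryptophan. The calls of rars-2 rested on single libraries, with an adjusted p of 0.0767 without WAGO-1 input replicate B, and of 0.0649 to 0.107 in the deletion strain without replicate A or B of its IP or A or C of its input. DESeq2 did not call it in the deletion strain (adjusted p = 0.0707). With WAGO-1 IP or input replicate B as the TMM reference, the WAGO-1 calls of aars-1 (edgeR adjusted p = 0.0519 and 0.0686), rars-2 (0.251 and 0.302) and wars-1 (0.309 and 0.381) were lost. With either reference 5 genes of the whole set stayed higher with WAGO-1, and cars-1 was not among them. Of all features 43.2%, 32.9% and 34.8% were higher and 24.9%, 21.2% and 26.8% lower. Under total counts 27, 22 and 22 synthetases were called lower, none was called higher in a WAGO-1 IP, and aars-1, cars-1 and iars-1 were called higher in the WAGO-3 IP.

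cars-1 stood at 226.6, 196.6 and 222.3 CPM in the WAGO-3 IPs and 33.59, 40.27 and 26.5 in their inputs, and at 66.73, 69.54 and 68.37 in the WAGO-1 IPs and 40.89, 35.82 and 48.99 in theirs. On the TMM scale the WAGO-3 IPs lay above every other library. IP against input on this scale was 2.65 ± 0.20 with WAGO-3 and 0.73 ± 0.20 with WAGO-1 (log2, SE; edgeR adjusted p = 2.65e-24 and 0.000744). Under total counts, where the median of all features lay 1.44 lower, cars-1 was not called higher with WAGO-1.

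iars-1 stood at 88.73, 102.4 and 106.7 CPM in the WAGO-1 IPs, 246.5, 229 and 239.2 in the deletion IPs and 187.1, 188.5 and 241.8 in the WAGO-3 IPs. Its inputs held 54.52, 34.33 and 34.08 CPM, 105.2, 96.3 and 74.83, and 47.03, 32.72 and 43.06 in the same order. On the TMM scale no IP overlapped its inputs, and the log2 folds were 1.38 ± 0.19, 1.38 ± 0.17 and 2.34 ± 0.20 (SE, edgeR adjusted p = 1.92e-10, 2.89e-12 and 2.96e-21). Under total counts the first was -0.06 and the second 0.31, neither called (edgeR adjusted p = 0.811 and 0.164).

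The lower synthetases included fars-1, for phenylalanine, at -2.23 ± 0.41, -1.87 ± 0.33 and -1.01 ± 0.40 in the 3 IPs (log2, SE; edgeR adjusted p = 9.62e-07, 4.31e-07 and 0.0224). With WAGO-3 the call was lost without replicate B of the IP (adjusted p = 0.0643) or replicate B (0.127) or C (0.106) of the input. aars-2 was the synthetase with most small RNAs in the inputs, at 146.5, 141.8 and 125.7 CPM in the WAGO-1 strain. It stood at 49.13, 61.82 and 54.69 CPM in the WAGO-1 IPs, below all of these, with a log2 fold of -1.29 ± 0.15 (edgeR adjusted p = 7.39e-14). Thus aars-1 and aars-2, both named for alanine, were on opposite sides of their inputs on the TMM scale, while under total counts aars-1 had -0.35 and was not called. Symbols alone do not say which synthetases act in mitochondria, so no such split was made.

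**Figure D3:**
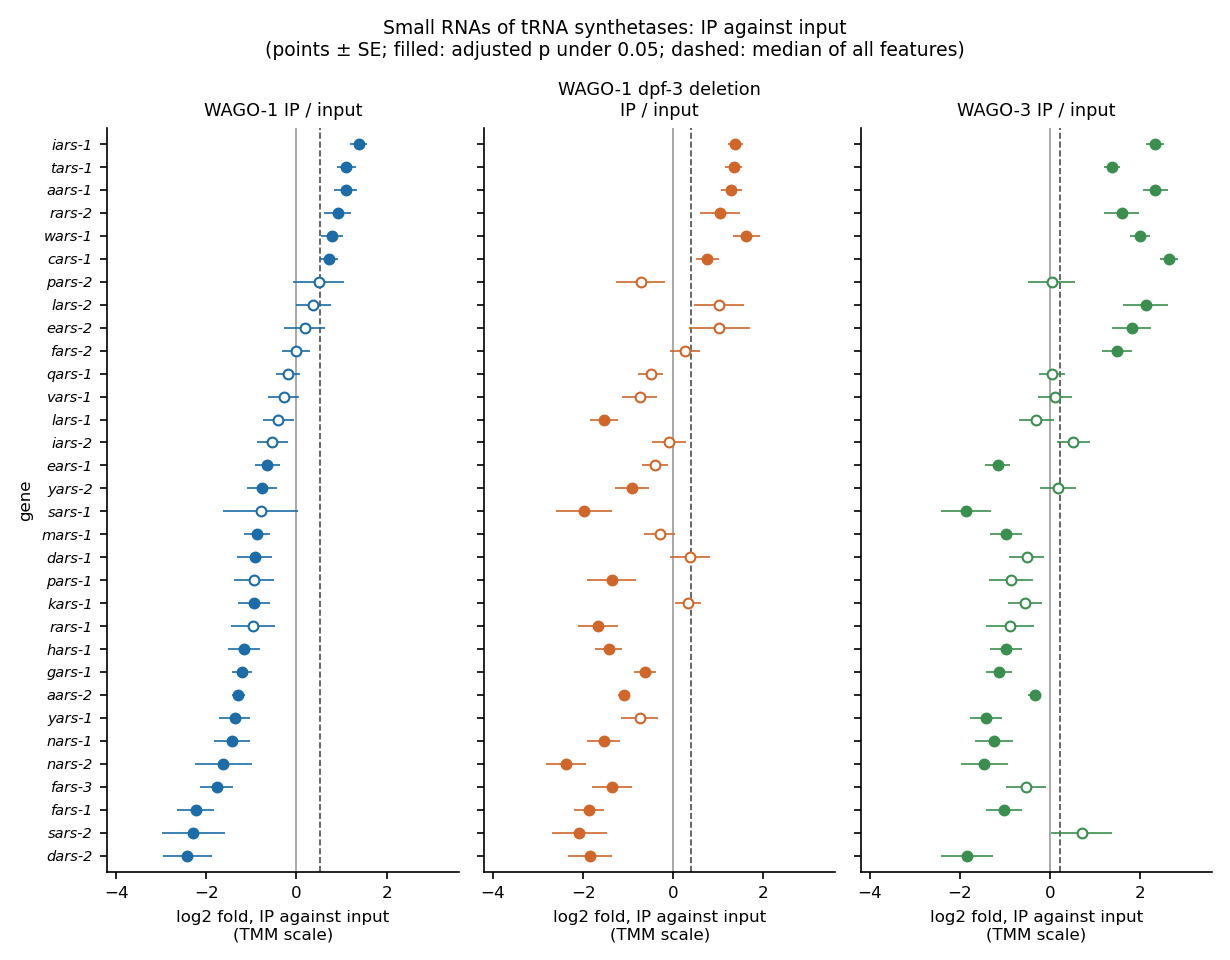
Log2 fold of IP against input (TMM scale, horizontal axis) for the 32 synthetase genes in the 3 strains, drawn as for the factors, with bars of 1 SE and filled points for edgeR adjusted p under 0.05. The 6 genes higher in both WAGO-1 strains lie right of 0 in every panel on this scale, and aars-1, cars-1 and iars-1 are still called higher under total counts in the WAGO-3 panel.

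With the dpf-3 deletion 20 of the 32 synthetases were higher in the IPs and none lower, where 30.6% of all features and 35.5% of all genes were higher. Under total counts all 32 were higher, beside 69.2% of all features. kars-1, for lysine, stood at 8.066, 12.36 and 9.875 CPM in the WAGO-1 IPs and 44.87, 44.93 and 59.32 in the deletion IPs. The groups were far apart, and the log2 fold of 2.25 ± 0.17 was the largest of a synthetase there (edgeR adjusted p = 3.55e-24). Among the genes with more reads, aars-1, tars-1 and iars-1 had 1.35 ± 0.11, 1.27 ± 0.10 and 1.25 ± 0.09 (adjusted p = 3.48e-22, 7.26e-24 and 6.64e-26). cars-1 had -0.08 ± 0.11 and rars-2 -0.32 ± 0.15, neither called. In the inputs 8 synthetases were higher and none lower, beside 8.65% and 14.9% of all features, and under total counts 21 were higher, beside 29.1%. The largest folds among those named by rule were nars-2 at 1.896 ± 0.56, lars-1 at 1.36 ± 0.39, hars-1 at 1.26 ± 0.36 and iars-1 at 1.25 ± 0.27 (edgeR adjusted p = 0.00565, 0.00431, 0.00489 and 8e-05). Leaving out replicate A of the deletion input ended the calls of nars-2, lars-1 and hars-1 (adjusted p = 0.121, 0.114 and 0.0779), and leaving out replicate C of the WAGO-1 input those of nars-2 and lars-1 (0.0821 and 0.0771).

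**Figure D4:**
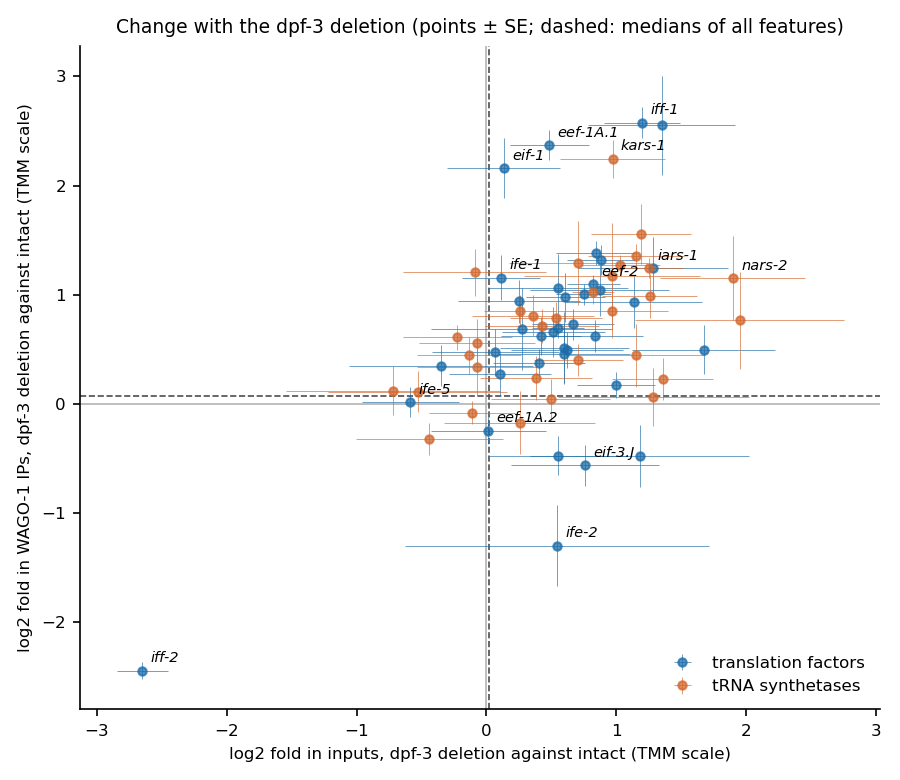
Log2 fold with the dpf-3 deletion in the inputs (horizontal) and in the WAGO-1 IPs (vertical) for the 69 tested genes on the TMM scale, with bars of 1 SE, dashed lines at the medians of all features and labels for genes named in the text. Most genes lie in the upper right and iff-2 far to the lower left (-2.65 and -2.44). On the TMM scale cars-1 and rars-2 also lie below 0 on both axes, but under total counts iff-2 alone does, and vertically only iff-2 and ife-2 stay below 0.

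Whether IP and input moved by different amounts was tested as the change of WAGO-1 enrichment with the deletion. It was called for 3 of the 69 genes, all higher, beside 1.55% of all features passing upward and 0.661% downward (1.72% and 0.679% of all genes). These were eef-1A.1 at 1.89 ± 0.34, eif-1 at 2.03 ± 0.52 and iff-1 at 1.38 ± 0.34 (log2, SE; edgeR adjusted p = 2.68e-05, 0.0123 and 0.00762). eef-1A.1 kept its call with each library left out in turn. iff-1 lost it without replicate B of the WAGO-1 input (adjusted p = 0.279) or replicate B (0.0766) or C (0.0515) of the WAGO-1 IP, and eif-1 without replicate B of the WAGO-1 input (0.14) or IP (0.112). The count was 8 under total counts, beside 7.41% of all features, and 20 or 24 with other TMM references, beside 16.5% or 20.6%. It was 5 when WAGO-1 input replicate A was left out, and 1 when replicate B of the WAGO-1 input or IP was.

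Enrichment in the WAGO-3 IP was higher than in the WAGO-1 IP for 17 genes and lower for none, beside 12.5% and 15.0% of all features (10.6% and 16.6% of all genes). Besides ife-5, they included cars-1 at 1.92 ± 0.32, eif-3.E at 1.94 ± 0.49, fars-2 at 1.51 ± 0.48, iff-1 at 1.34 ± 0.37 and wars-1 at 1.21 ± 0.36 (log2, SE; edgeR adjusted p = 4.42e-07, 0.00101, 0.0107, 0.00257 and 0.00621). iff-2, enriched with both proteins, differed by 0.57 ± 0.13 (adjusted p = 0.000184). Without a library the calls of ife-5, cars-1, eif-3.E and iff-2 held, while iff-1 was lost without WAGO-1 input replicate B (adjusted p = 0.101), fars-2 without WAGO-1 input replicate A (0.157) and wars-1 without WAGO-1 input replicate C (0.0716). The median over the 69 genes was 0.45 against 0.04 over all features, and 52 lay above the latter. Under total counts 11 genes were higher and 2, eif-3.B and eef-1A.1, lower, beside 9.72% and 17.2% of all features. The count was 8 without replicate B of the WAGO-1 input and 11 without replicate C of the WAGO-3 IP, and 30 or 32 with other TMM references, beside 19.4% or 23.6% of all features.

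The inputs of the strains with dpf-3 intact differed in fewer genes. In the WAGO-3 strain 4 genes were higher and 2 lower than in the WAGO-1 strain, beside 5.73% and 8.01% of all features (5.97% and 4.81% of all genes), and the split was the same under total counts. iff-2 was 2.16-fold higher, at 1.11 ± 0.11 (log2, SE; edgeR adjusted p = 3.31e-17), and the 3 libraries of each strain did not overlap. tars-1 had 0.97 ± 0.28 and eif-2Bdelta 1.68 ± 0.50 (adjusted p = 0.00766 and 0.00897), and the former was lost without WAGO-1 input replicate C (0.0725) or WAGO-3 input replicate B (0.0637). eif-2Bdelta was lost without WAGO-1 input replicate B or C or WAGO-3 input replicate B or C (0.0614 to 0.141). The lower genes were ife-5 and eef-1A.2, the latter at -1.51 ± 0.53 (adjusted p = 0.0382) on 2 to 3 reads per WAGO-3 input, which was lost without WAGO-1 input replicate B or any WAGO-3 input (0.0619 to 0.181). The split became 1 higher and 1 lower when WAGO-3 input replicate B was left out, and 2 and 1 when WAGO-1 input replicate B was. With WAGO-1 input replicate C left out 2 were higher, and with WAGO-3 input replicate A or C left out none or 1 was lower.

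Summed over the 70 genes, small RNAs made up 0.145% ± 0.0030 (SD, n = 3) of feature counts in the WAGO-1 IPs, 0.329% ± 0.0087 in the deletion IPs and 0.319% ± 0.0101 in the WAGO-3 IPs. The inputs held 0.280% ± 0.0146, 0.639% ± 0.0258 and 0.363% ± 0.0179. Groups did not overlap between deletion and intact libraries or between IP and input, and each comparison had an exact permutation p of 0.1, the smallest possible. iff-2 alone supplied 48.4%, 8.62% and 63.0% of the genes' reads in the 3 IPs and 14.8%, 1.74% and 25.3% in the inputs. Without it the share was 0.0747% in the WAGO-1 IPs, 0.3002% in the deletion IPs and 0.118% in the WAGO-3 IPs. With all counted reads as the denominator, those in no feature included, the order of IP and input turned round, for example 0.0890% against 0.0744% in the WAGO-1 strain.

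**Figure D5:**
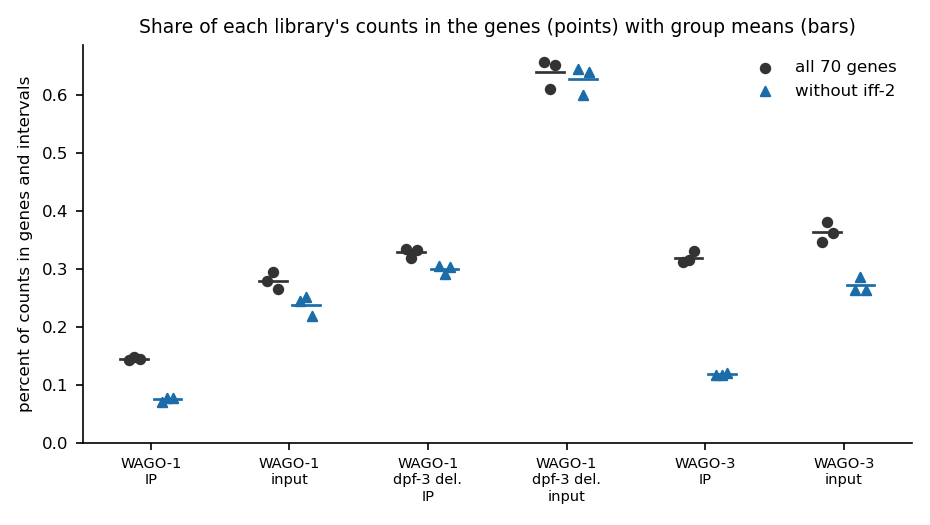
Percent of counts in genes and intervals that fell in the 70 genes, per library (points) with group means of 3 (bars), with and without iff-2. The deletion inputs are highest (0.610% to 0.656%) and the WAGO-1 IPs lowest (0.142% to 0.148%), and leaving out iff-2 lowers the WAGO-3 IPs most.

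A list of 39 related genes outside the symbol rule was looked at beside them, of which the 35 analysed here were all tested. Between the WAGO-1 IPs 25 were higher in the dpf-3 deletion and 3 lower, and between the inputs 8 and 1, beside 30.6% and 31.8%, and 8.65% and 14.9%, of all features. Under total counts these were 34 and 1, and 25 and none, beside 69.2% and 16.9%, and 29.1% and 10.2%. The largest changes were those of ifg-1, which encodes eIF4G, the partner of eIF4E at the cap, and of larp-1, whose product binds messenger RNAs of the translation machinery. ifg-1 stood at 16.69 ± 2.39 CPM in the WAGO-1 IPs and 867.2 ± 31.9 in the deletion IPs, and at 51.63 ± 11.9 and 310.7 ± 74.7 in the inputs (SD, n = 3). It was 53-fold higher in the IPs and 6.15-fold higher in the inputs (edgeR adjusted p = 1.02e-81 and 1.72e-25). larp-1 was 31.6-fold higher in the IPs and 3.46-fold higher in the inputs (adjusted p = 8.01e-78 and 1.39e-17).

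The enrichment of both changed with the deletion. For larp-1 IP against input went from -2.07 ± 0.20 to 1.12 ± 0.11 (log2, SE, and 0.04 under total counts in the deletion), a change of 3.19 ± 0.23 (edgeR adjusted p = 6.69e-24), and for ifg-1 from -1.64 ± 0.24 to 1.47 ± 0.11, a change of 3.11 ± 0.28 (adjusted p = 1.23e-17). clu-1, often listed with eIF3, changed by 2.35 ± 0.28 (adjusted p = 8.26e-11). pek-1, which encodes the stress kinase PERK that acts on eIF2, moved in the direction of iff-2. On the TMM scale it was 2.68-fold lower in the deletion IPs and 2.49-fold lower in the inputs (adjusted p = 2e-35 and 0.000262, the inputs not called under total counts). It was higher than input in all 3 IPs on the TMM scale, but at -0.67 under total counts with WAGO-3.

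In the annotation, 30 of the 70 genes overlap another annotated gene, 22 of them a protein-coding gene, and 22 hold at least 1 interval in their span. Since the strand used for counting is not given in the sources used here, reads of such partners, for example kel-1 within tars-1 or mpz-5 with iars-1, cannot be told apart from those of the genes named.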

How the data were processed

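Small RNA reads were counted by the authors over genes and unnamed genomic intervals, and the deposited values are raw counts, not normalised, for 18 libraries, all of which matched a title (0 columns were unused). Per the submitters' processing notes the build was ce11 and the tools were HTSeq 0.11.2, SAMtools 1.9, Bowtie 1.2.3 and cutadapt 2.3. The sources used here do not give the strand setting, the annotation, how reads with several positions were handled or whether molecular identifiers were used, so values of near-identical copies such as eef-1A.1 and eef-1A.2, and of overlapping genes, are uncertain. Of 5 summary lines, 3 were 0. Reads in no feature (32.5% to 38.6% of an IP, 68.6% to 82.4% of an input) stayed out of library sizes and tests.

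Counts were tested with edgeR 4.0.16 (R 4.3.3): filterByExpr at a minimum count of 10 kept 11648 of 75393 features (9869 genes and 1779 intervals), and a single quasi-likelihood model with 6 group means gave 8 contrasts with Benjamini-Hochberg adjustment over all features at 0.05. TMM took replicate B of the deletion IP as its reference. The other TMM fits held it, except where that library was left out or the reference itself was changed. SE was taken as the size of the log2 fold over the root of F. The labels do not say whether replicates are separate cultures, so p-values measure the spread between these libraries, which may be technical. No replicates held identical counts, and replicates of a group differed with a chi-square per degree of freedom of 1.19 to 5.85 between IPs and 1.04 to 1.30 between inputs.

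Genes to be named with values were every ife, iff and eef gene, up to 5 eif genes and 5 synthetases per direction and comparison with the largest folds among called genes with at least 20 CPM in a compared group, and up to 6 related genes with the smallest p. Not all genes picked by this rule are given with values, for example eif-2D and pab-1. Others are named as examples chosen after their values were seen, among them eif-3.J, rars-2 and members of shared lists. The genes and lists were chosen with earlier results of these data known. Positions come from the RefSeq table of WBcel235, the assembly also called ce11, in which all 70 genes matched. Counts were also simulated from a single mean per feature over all 18 libraries, with some features changed in the deletion IPs. Between the WAGO-1 IPs 7957 simulated features were tested. The test recovered 100% and 88% of features changed 4-fold up and down and 96% and 80% of those changed 2-fold, with 2.67% of its calls false. The groups differed in nothing else there, so these rates do not cover the differences of composition between the real groups or the placing of the TMM zero. Alternatives were DESeq2 1.42.0, total counts, no filter, genes only, the replicate letter as a block and each library left out, and, added after seeing the data, other TMM references and the share without iff-2.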

Additional observations from a re-analysis of the deposited data

Results flagged for a closer look

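The change of WAGO-1 enrichment with the dpf-3 deletion, a test of the difference between IP-to-input folds of the 2 strains, passed for iff-1 (1.38 on the log2 scale), eef-1A.1 (1.89) and eif-1 (2.03). The difference between WAGO-3 and WAGO-1 enrichment passed for 17 genes, all toward WAGO-3 on the TMM scale. Among the factors these log2 differences were 1.08 for eif-2Bepsilon, 1.94 for eif-3.E, 2.56 for ife-5, 1.34 for iff-1, 0.57 for iff-2, 0.64 for eef-1B.1, 1.23 for eef-1G, 1.46 for eif-1 and 1.195 for eif-1.A. Among the synthetases they were 1.25 for aars-1, 0.96 for aars-2, 1.92 for cars-1, 1.51 for fars-2, 0.95 for iars-1, 1.76 for lars-2, 3.00 for sars-2 and 1.21 for wars-1. Leaving out WAGO-1 input replicate B brought aars-1 to 0.27 (edgeR adjusted p = 0.831), and its WAGO-1 inputs held 1, 23 and 7 reads. The same omission ended the calls of iff-1 (0.101), eef-1G (0.0931), eif-1.A (0.212), eif-1 (0.17), eif-2Bepsilon (0.123), eef-1B.1 (0.108) and lars-2 (0.171), and aars-1, eif-1, eif-2Bepsilon, eef-1B.1 and lars-2 were lost without other single libraries too. The value of sars-2 rests on 1 to 5 reads per input and 2 to 4 per WAGO-1 IP. Intervals inside ife-5, which enter none of the counts of genes, held 12626 reads and fell with the dpf-3 deletion where ife-5 itself was not called.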

How the results depend on the processing

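DESeq2 and the replicate block moved none of the 16 counts of calls by over 1.5 times. Replicate letters did not pair libraries (correlations of same-lettered residuals from -0.015 to 0.14), and with the replicate block 46 of the 47 calls between the WAGO-1 IPs were kept and 49 were made, while no call changed in the other 7 comparisons. Leaving out a library gave, higher and lower, 8 to 10 and 21 to 32 genes for WAGO-1 IP against input, 8 to 12 and 14 to 31 in the deletion, 16 to 19 and 12 to 22 for WAGO-3, 36 to 38 and 4 to 6 between the WAGO-1 IPs, 6 to 14 and 1 to 1 between their inputs, 1 to 5 and 0 to 1 for the change of enrichment, 8 to 22 and 0 to 2 for WAGO-3 against WAGO-1 enrichment, and 1 to 3 and 0 to 2 between the intact inputs.

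Total counts gave 1 and 57, 1 and 51, and 4 and 51 for the 3 IPs against inputs, 67 and 1 between the WAGO-1 IPs, 47 higher between their inputs, 8 higher for the change of enrichment, and 11 and 2 for WAGO-3 against WAGO-1 enrichment. Without a filter on low counts 16 were lower in the deletion IP, 2 lower between the WAGO-1 IPs, 11 higher for WAGO-3 against WAGO-1 enrichment and 1 lower between the intact inputs. With genes only, 7 were lower between the WAGO-1 IPs and 7 higher between their inputs. TMM references chosen after seeing the data (WAGO-1 IP replicate B, then WAGO-1 input replicate B) gave 5 and 5 higher in the WAGO-1 IP, 0 and 10 higher between the WAGO-1 inputs, 20 and 24 for the change of enrichment and 30 and 32 for WAGO-3 against WAGO-1 enrichment. The first gave 2 lower between the WAGO-1 inputs and 1 higher and 4 lower between the intact inputs, and the second 2 lower between the WAGO-1 IPs.

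Directions reversed under total counts in WAGO-1 IP against input for eef-1A.2 (-0.27), eef-1B.1 (-1.34), eef-1B.2 (-1.39), eef-2 (-0.54), aars-1 (-0.35), iars-1 (-0.063), rars-2 (-0.53), tars-1 (-0.34) and wars-1 (-0.65). They did so in the deletion for eif-3.B (-0.30), iff-1 (-0.93), eef-1A.1 (-0.39), eef-1A.2 (-0.15), eef-1B.1 (-0.71), eef-1B.2 (-0.88) and rars-2 (-0.033), and with WAGO-3 for eif-2Bepsilon (-0.36), iff-1 (-1.53), eef-1B.1 (-0.89), eef-1B.2 (-1.04), eef-2 (-0.28), gfm-1 (-0.075) and pek-1 (-0.67). These lists hold only genes that the naming rule picked in that comparison, so they are not complete. Left out were cars-1 with WAGO-1 in both strains and tars-1, rars-2 and fars-2 with WAGO-3. They were called higher on the TMM scale there and not under total counts. Outside the naming rule, eif-3.J turned under total counts to -0.59 in WAGO-1 IP against input and to 0.57 between the WAGO-1 IPs. Between the WAGO-1 IPs eif-3.I (0.65) and eef-1A.2 (0.89) reversed, as they did with WAGO-1 input replicate B as reference (0.052 and 0.29). The 2 references turned eef-1B.1 (-0.40 and -0.44) and eef-1B.2 (-0.45 and -0.49) in the WAGO-1 IP, and the first turned eef-1B.2 (-0.11) between the WAGO-1 inputs. Those under total counts and other references follow from where the scale puts 0; for the other settings the cause was not tested.

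The genes' share of counts, in the order WAGO-1 IP and input, deletion IP and input, WAGO-3 IP and input, was 0.210%, 0.380%, 0.374%, 0.697%, 0.415% and 0.423% of counts in genes only, and 0.0890%, 0.0744%, 0.221%, 0.118%, 0.208% and 0.104% of all counted reads. Without iff-2 it was 0.0747%, 0.238%, 0.3002%, 0.118% and 0.271% in all but the deletion input. Depth limits the inputs most: 1 read there is worth 1.49 to 4.81 CPM, against 0.169 to 1.02 in the IPs.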
